A study of Homo sapiens with 18 samples.

Results

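H3K9me3 domains of U937 cells knocked out for SUV39H1 (SKO) were set against those of U937 cells carrying a control guide (sgControl), with 2 libraries of each, so 4 of the 18 samples in the series. U937 is an established human acute myeloid leukaemia cell line, and chromatin immunoprecipitation with sequencing (ChIP-seq) was done on fixed, sonicated chromatin with an antibody against H3K9me3. Every H3K9me3 library used 5 µg of human chromatin, 0.25 µg of Drosophila S2 chromatin as a spike-in and 5 µg of antibody. The other readouts used here are H3K9me3 in cells lacking both SUV39H1 and SUV39H2 (DKO, 2 libraries), H3K27me3 in SKO and sgControl (2 libraries each) and SETDB1 in wild-type (WT) U937 cells (2 libraries). The sources used here do not say whether the knockout lines are clones or pools, or whether replicates are separate cultures, so the spread between replicates may be technical. The knockout cannot be checked in these lists, since they measure a histone mark and no transcript. SUV39H1 also lies on chromosome X, and the main comparisons here cover the autosomes.

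Trimethylation of lysine 9 on histone H3 marks heterochromatin, where it is bound by HP1 proteins and goes with silencing of genes and repeats. SUV39H1 and its relative SUV39H2 deposit it at pericentromeric repeats and over broad gene-poor territory, while SETDB1, brought to DNA by KRAB zinc finger proteins and TRIM28 or by the HUSH complex, deposits it at retroelements and zinc finger gene clusters. H3K27me3 is the mark of the Polycomb system, which keeps developmental genes silent.

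In SKO the called H3K9me3 domains were shorter and covered less of the autosomes. They covered 737 and 739 Mb in the SKO libraries, against 1028 and 997 Mb in the sgControl libraries, and the groups did not overlap. The means were 738 ± 1.10 Mb in SKO and 1013 ± 21.7 Mb in sgControl (SD, n = 2), a difference of -27.1%. With 2 libraries against 2, no exact test can go below p = 0.333, so differences in level are given with their spread and without a p. The reads inside domains were 20.6 and 19.7 M (M, 1000000 reads) in SKO and 23.3 and 17.7 M in sgControl. These reads depend on which domains were called, and the total sequencing depth is not known here. The files give no spike-in factor, so they show where domains were called and not the total amount of the mark, and a base outside every domain is one where no domain was called.

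Domains between 20 and 500 kb carried most of the difference. Domains of 20 to 100 kb numbered 9792 ± 168 in SKO and 13102 ± 139 in sgControl (SD, n = 2), a ratio of 0.747. Domains of 100 to 500 kb numbered 1150.0 ± 56.6 in SKO and 1809 ± 50.2 in sgControl, a ratio of 0.636. Domains under 5 kb were the reverse, with 1085 and 605 in the SKO libraries and 379 and 215 in the sgControl libraries. Weighted by length, the median domain width (the N50) was 48.8 and 54.4 kb in SKO and 61.6 and 62.4 kb in sgControl. The smallest domain was 800 bp, so the narrow class rests on few steps of the window grid on which domains were called.

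**Figure D1:**
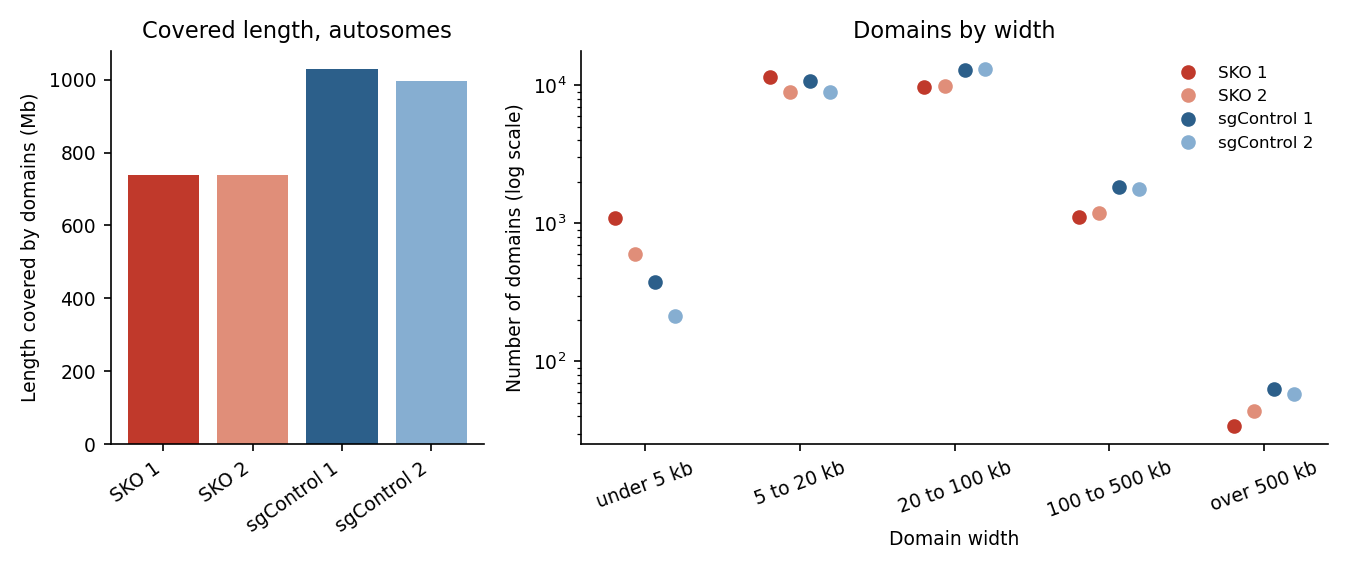
Length of the autosomes inside H3K9me3 domains in each library (left, Mb) and the number of domains in 5 width classes (right, log scale), for SKO and sgControl replicates 1 and 2. Both SKO libraries lie below both sgControl libraries in covered length and in the 3 classes of 20 kb and more, and above them in the class under 5 kb.

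Wide control domains were more often kept in part than absent in SKO. A domain of one library was said to lack a counterpart where under 10% of its length lay in domains of the other. Of all sgControl domains, 36.8% to 40.2% lacked a counterpart in an SKO library, while 11.8% to 17.7% lacked one in the other sgControl library. The mean without an SKO counterpart was 38.5%, and 20.3% with every list cut by score to the same covered length. Of sgControl domains of 100 kb or more, 8.60% to 11.03% met no SKO domain at all and none failed to meet one of the other sgControl library. The median share of such a wide domain that lay inside domains was 81.2% to 81.9% in an SKO library, against 96.6% and 97.4% in the other sgControl library. In the opposite direction, 22.97% to 27.4% of SKO domains lacked a counterpart in an sgControl library, against 8.51% to 14.8% in the other SKO library. Most SKO domains under 5 kb were of this kind, with 76.9% to 85.0% lacking a counterpart in sgControl and 15.7% to 28.3% lacking one in the other SKO library.

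To place these differences, the autosomes were cut into 10 kb bins, and a bin was marked in a library where at least 50% of it lay in domains. A bin marked in both sgControl libraries and in neither SKO library was called lost, and the opposite gained. With every list as deposited, lost bins came to 273.16 Mb, which is 9.5% of all bins and 31.2% of the 876.8 Mb marked in both sgControl libraries. Gained bins came to 83.45 Mb, or 2.9% of all bins, and 478.29 Mb was kept in all 4 libraries. With every list cut by score to the same covered length, 153.01 Mb was lost and 161.01 Mb gained, so which of them is larger depends on how much of each list is used. The loss took whole short stretches and parts of long ones. Of control-marked stretches of 20 to 40 kb, 41.3% of the length was lost, and of stretches of 500 kb or more, 20.3%. Stretches that were lost from end to end held 49.3% of the lost length. Gained stretches were short, with a median of 10 kb, against 20 kb for lost ones. Within the sgControl files the lost bins carried somewhat fewer reads per kb than the kept ones, with medians of 20.3 against 24.2 in replicate 1 and 16.02 against 18.9 in replicate 2. Within the SKO files gained bins carried more than kept ones, with 28.4 against 24.9 in replicate 1 and 27.2 against 23.7 in replicate 2.

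The lost territory was poor in genes and the gained territory was not. Lost bins held 1.69 start sites of protein-coding genes per Mb, gained bins 6.05, kept bins 2.71 and all autosomal bins 5.25. Start sites were available for 15101 of the 19126 autosomal coding genes. A bin with no start site counted nearby may thus still lie near a coding gene. Where no start site lay within 500 kb, both SKO libraries marked 20.2% to 20.3% of bins, against 40.04% and 39.4% in the sgControl libraries, and 44.6% of control-marked length was lost. The share lost was 31.4% with 1 to 4 start sites in that window, 19.3% with 5 to 9, and 12.8% and 13.4% in the 2 richest classes of 10 to 19 and 20 or more. With 10 or more start sites the direction turned: with 10 to 19, the SKO libraries marked 18.9% and 19.3% of bins, against 16.7% and 15.95% in the sgControl libraries. Gained bins made up 6.91% of the SKO-marked length in the poorest class and 24.4% where 10 to 19 start sites lay near, and 15.9% with 20 or more.

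Chromosomes differed in the same way. Of the 22 autosomes, 16 (72.7%) had less covered length in both SKO libraries than in both sgControl libraries, and 6 (27.3%) had more: chromosomes 15, 16, 17, 19, 20 and 22. No autosome had overlapping groups. When every list was cut by score to the same covered length, 8 autosomes were lower and 14 higher in SKO, so the split rests on how much of each list is used. Chromosome 18 had the lowest ratio of SKO to sgControl, 0.422, with 18.9 and 18.4 Mb covered in SKO and 44.6 and 43.9 Mb in sgControl, and 56.1% of what both sgControl libraries marked there was lost. The lost share was 49.4% on chromosome 4, 48.8% on chromosome 21, 45.1% on chromosome 5, 44.5% on chromosome 14 and 41.9% on chromosome 12. It was 3.37% on chromosome 19, 5.00% on chromosome 15 and 7.24% on chromosome 20. Chromosome 19 had 21.9 and 22.3 Mb covered in SKO and 20.3 and 19.5 Mb in sgControl. Chromosome 22 had almost no domains, with 0.982 and 1.13 Mb in SKO and 0.340 and 0.239 Mb in sgControl. Over the 22 autosomes the lost share went with fewer genes per Mb (Spearman's rho = -0.66, Pearson's r = -0.56, a description of chromosomes that share the same 4 libraries). Chromosome 22 is counted there with a lost share of 0%, although both sgControl libraries marked only 0.04 Mb of it. Gene density did not order every chromosome: chromosomes 13 and 4 had 2.96 and 4.05 genes per Mb, and lost 31.9% and 49.4%.

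**Figure D2:**
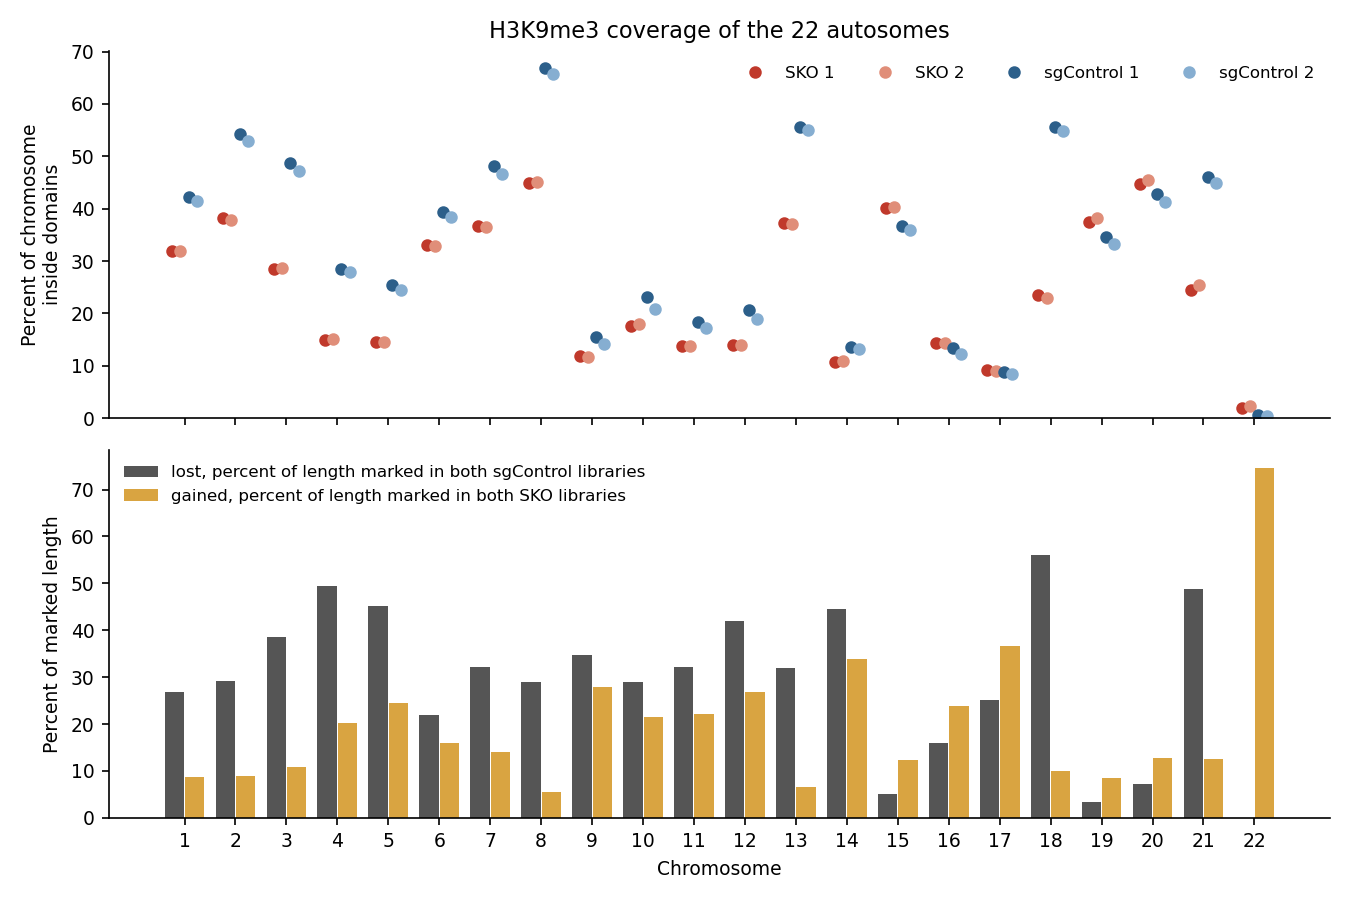
Percent of each autosome inside H3K9me3 domains in SKO and sgControl replicates 1 and 2 (above), and the lost share of control-marked length beside the gained share of SKO-marked length (below, percent). SKO lies below sgControl on 16 autosomes and above it on chromosomes 15, 16, 17, 19, 20 and 22, and the lost share runs to 56.1% on chromosome 18.

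The lost territory held hardly any SETDB1 peaks. Of 22879 SETDB1 peaks in WT library 1 and 23773 in library 2, 12032 of library 1 shared a base with one of library 2. Lost bins held 0.286 of these shared peaks per Mb (78 peaks), gained bins 16.6 per Mb (1382 peaks), kept bins 14.9 (7127 peaks) and all bins 4.19. Taking every peak of one library gave 1.07 and 1.23 per Mb in lost bins, 29.3 and 30.1 in gained bins and 26.3 and 27.1 in kept bins. The lost bins were lower than the kept bins on each of the 21 autosomes with lost bins, and gained bins were higher than lost bins on all 21. Gained bins were higher than kept bins on 13 of the 21. The difference between lost and kept bins was also there at like gene density: with no start site within 500 kb, lost bins held 0.172 peaks per Mb, gained bins 11.8 and kept bins 8.91, and with 20 or more, lost bins held 4.37, gained bins 24.3 and kept bins 71.5. SETDB1 was mapped in WT cells, so these values place its sites in cells without the knockout, and SETDB1 in SKO was not analysed here.

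The same held domain by domain. Of sgControl domains of 20 to 100 kb with no counterpart in either SKO library, 0.538% (replicate 1) and 0.455% (replicate 2) met a shared SETDB1 peak. Of those with a counterpart, 21.1% and 21% did. Of SKO domains of this width with no counterpart in sgControl, 22.6% (replicate 1) and 22.9% (replicate 2) met a peak, about as many as of those with one, 23.9% and 24.1%. Among sgControl domains of 5 to 20 kb without an SKO counterpart, 53.3% and 61.3% lay mostly inside domains of the other sgControl library, so part of this narrow class was not found in both.

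H3K27me3 covered more of the lost territory in SKO. The lost bins lay inside H3K27me3 domains over 80.4% and 80.1% of their length in SKO, against 67.1% in both sgControl libraries, a difference of 13.2 percentage points. Kept bins were at 61.8% ± 0.186 in SKO and 53.6% ± 0.153 in sgControl, gained bins at 13.5% ± 0.138 in SKO and 11.9% ± 0.0532 in sgControl, and all bins at 39.6% ± 0.225 in SKO and 35.6% ± 0.123 in sgControl (SD, n = 2). Bins marked by H3K9me3 in none of the 4 libraries were at 20.5% ± 0.258 in SKO and 20.8% ± 0.114 in sgControl. At the 10 kb scale, 15.6% of lost bins were newly marked by H3K27me3 in both SKO libraries and in neither sgControl library, 2.24% changed the other way and 63.1% were marked in all 4, against 6.74%, 2.44% and 30.5% of all bins. The order was not the same everywhere. The difference between SKO and sgControl was larger in lost than in kept bins on 13 of the 21 autosomes with lost bins. H3K27me3 in lost bins was higher in SKO on 16 of 21 autosomes and lower on the other 5, among them chromosome 18, with 80.2% in SKO and 87.3% in sgControl. It was higher in SKO where fewer than 10 start sites lay within 500 kb, with 90.3% in SKO and 73.7% in sgControl where there were none, and lower in the 2 classes above that, where with 20 or more it covered 62.0% in SKO and 71.3% in sgControl.

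**Figure D3:**
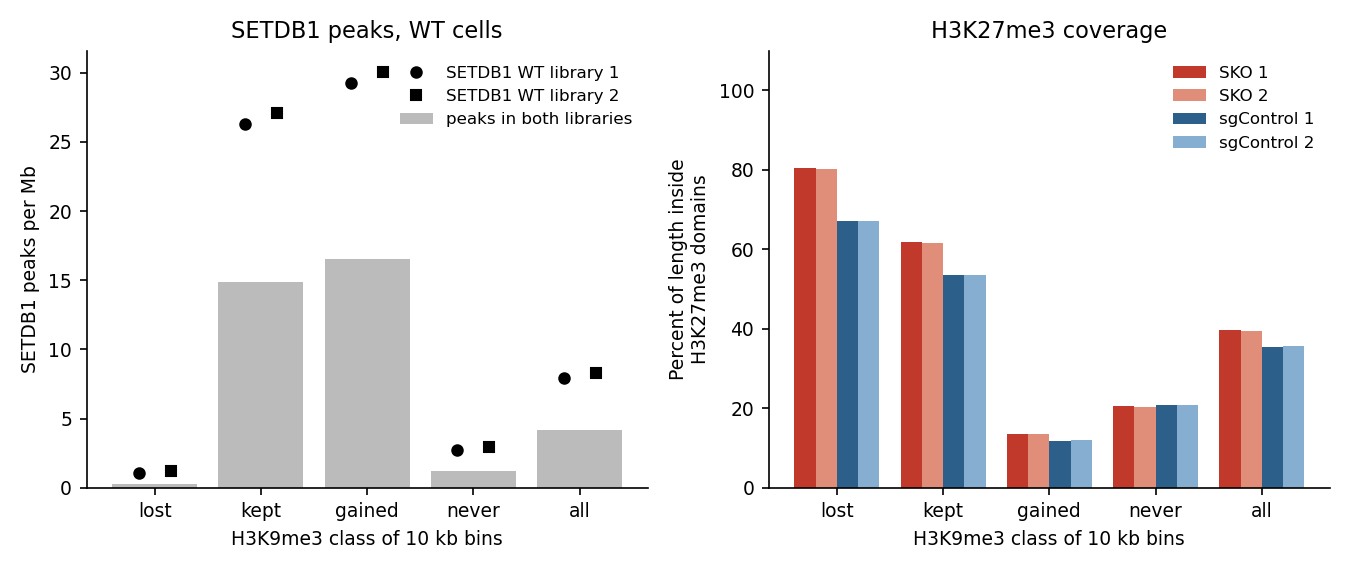
SETDB1 peaks per Mb in WT cells (left, bars for peaks found in both libraries, points for all peaks of each library) and the percent of length inside H3K27me3 domains in SKO and sgControl replicates 1 and 2 (right), for bins that lost, kept, gained or never had H3K9me3 and for all bins. Lost bins hold 0.286 shared SETDB1 peaks per Mb, against 16.6 in gained and 14.9 in kept bins, and their H3K27me3 coverage is 80.4% and 80.1% in SKO and 67.1% in sgControl.

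The DKO libraries had H3K9me3 over 22.9% and 21.3% of the lost bins, 66.3% and 66.7% of the gained bins and 86.5% and 86.8% of the kept bins. The gained and lost bins were defined against the same sgControl libraries that any comparison of DKO would use, so these values stand side by side and are no independent repeat.

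Of the 6 longest lost stretches, 350 to 580 kb long, 5 held no coding gene and 1 lay in PTPRK, a receptor phosphatase gene. H3K27me3 covered 4 of them almost fully in all 4 libraries and 2 of them in SKO alone. On chromosome 21 from 27310001 to 27690000 (380 kb, no coding gene), H3K9me3 covered 0% and 0.105% in SKO and 96.8% and 97.9% in sgControl, and H3K27me3 covered 97.9% and 98.9% in SKO and 0% in both sgControl libraries. On chromosome 13 from 87160001 to 87510000 (350 kb, no coding gene), H3K9me3 covered 2.51% and 1.26% in SKO and 98.9% and 100% in sgControl, and H3K27me3 98.9% in both SKO libraries and 0% in sgControl. On chromosome 18 from 42130001 to 42500000 (370 kb, no coding gene), H3K9me3 covered 0% in both SKO libraries and 98.5% and 93.7% in sgControl, while H3K27me3 covered 97.8% and 94.8% in SKO and 100% in sgControl. The stretches on chromosomes 21 and 13 exchanged one mark for the other, and the one on chromosome 18 carried both in sgControl and kept H3K27me3. The 6 longest gained stretches, 110 to 570 kb long, all held coding genes. The first 3 lie close together on chromosome 6, and in the one of 570 kb with 10 genes H3K27me3 covered 27.9% and 27.3% in SKO and 1.40% and 1.26% in sgControl. On chromosome 3 from 177060001 to 177200000 over TBL1XR1, a subunit gene of a nuclear receptor corepressor complex, H3K9me3 covered 93.7% and 96.6% in SKO and 0% in sgControl. On chromosome 10 from 30870001 to 31000000 over ZNF438, it covered 98.2% and 97.5% in SKO and 0% in sgControl. No library had H3K27me3 domains at either.

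Genes were described by the percent of the gene body inside domains. A gene was called lost or gained where the 2 genotypes did not overlap and their nearest libraries differed by at least 25 percentage points. Of 19126 autosomal protein-coding genes 874 (4.57%) were called lost and 783 (4.09%) gained. Of the 3603 genes with enough coverage in sgControl to be lost, 24.3% were, and of the 16405 with room to gain, 4.77% did. By limma on the 7812 genes with any domain, 835 (10.7%) were lower and 1318 (16.9%) higher at an adjusted p under 0.05, so which direction has more genes depends on the rule. A shared SETDB1 peak lay in 14.99% of lost genes, 42.8% of gained genes, 42.9% of the genes covered over at least 75% in all 4 libraries and 16.2% of all genes. Lost genes were thus close to all genes by this measure, which counts a peak anywhere in the body, while lost bins were far below all bins. Lost genes had a median body of 68.7 kb, gained genes 35.4 kb and all genes 24.5 kb. The DKO libraries covered lost genes over 28.2% and 27.3% on average and gained genes over 54.6% and 57.1%.

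Promoters of 15101 of these genes matched a RefSeq table of GRCh38.p14. Their start sites lay inside H3K9me3 domains in 2051 cases in either SKO library, and in 2223 and 2122 cases in the sgControl libraries. Start sites marked in both sgControl and neither SKO library numbered 438 (2.9%), and the opposite 388 (2.57%). The ratio of observed to expected CG dinucleotides over the 300 bases of the table had a median of 0.595 at lost genes, 0.769 at gained genes, 0.571 at genes covered throughout and 0.767 over all genes. As examples, the 250 bases before the start site are shown 5′ to 3′ for 3 genes whose start site lay in domains of both sgControl and neither SKO library (DSC2, KLF5 and NKX6-1), and for 3 of the opposite kind (PPARD, CXCL9 and TLR4), with CG dinucleotides in capitals. They lie at chr18:31102422-31102671 (minus strand), chr13:73054726-73054975 (plus), chr4:84499293-84499542 (minus), chr6:35342308-35342557 (plus), chr4:76007510-76007759 (minus) and chr9:117704153-117704402 (plus) of GRCh38.p14.
DSC2: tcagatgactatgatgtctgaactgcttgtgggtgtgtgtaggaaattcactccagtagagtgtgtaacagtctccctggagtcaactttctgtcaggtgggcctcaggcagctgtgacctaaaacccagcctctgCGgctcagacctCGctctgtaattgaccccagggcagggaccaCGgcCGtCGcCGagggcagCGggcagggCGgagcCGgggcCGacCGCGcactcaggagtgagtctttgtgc
KLF5: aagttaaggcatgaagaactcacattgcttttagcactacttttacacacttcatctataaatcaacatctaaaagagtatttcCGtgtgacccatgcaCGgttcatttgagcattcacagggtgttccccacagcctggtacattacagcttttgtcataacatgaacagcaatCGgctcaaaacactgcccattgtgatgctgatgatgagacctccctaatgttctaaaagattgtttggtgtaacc
NKX6-1: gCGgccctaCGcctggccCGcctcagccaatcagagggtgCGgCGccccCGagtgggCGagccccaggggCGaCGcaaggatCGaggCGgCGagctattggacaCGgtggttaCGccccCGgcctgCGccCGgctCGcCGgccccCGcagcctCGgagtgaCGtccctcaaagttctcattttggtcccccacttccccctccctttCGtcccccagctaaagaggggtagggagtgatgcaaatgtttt
PPARD: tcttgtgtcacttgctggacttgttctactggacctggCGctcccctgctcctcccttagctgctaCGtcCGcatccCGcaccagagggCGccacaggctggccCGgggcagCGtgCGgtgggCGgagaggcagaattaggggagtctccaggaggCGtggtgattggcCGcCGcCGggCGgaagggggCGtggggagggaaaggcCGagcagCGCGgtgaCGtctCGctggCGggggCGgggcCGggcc
CXCL9: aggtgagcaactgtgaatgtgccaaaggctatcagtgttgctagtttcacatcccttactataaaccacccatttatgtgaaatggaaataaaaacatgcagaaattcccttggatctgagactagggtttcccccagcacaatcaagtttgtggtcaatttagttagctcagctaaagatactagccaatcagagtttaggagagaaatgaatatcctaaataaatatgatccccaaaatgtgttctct
TLR4: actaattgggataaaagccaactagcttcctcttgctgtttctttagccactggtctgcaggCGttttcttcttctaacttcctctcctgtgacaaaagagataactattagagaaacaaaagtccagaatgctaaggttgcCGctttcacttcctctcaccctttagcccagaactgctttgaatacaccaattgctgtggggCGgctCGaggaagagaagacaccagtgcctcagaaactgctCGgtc
CG occurs 12 times in the DSC2 window, 3 times at KLF5, 23 times at NKX6-1, 23 times at PPARD, 0 times at CXCL9 and 5 times at TLR4. Over the same window of all 15101 promoters CG, which reads the same on both strands, is found in 96.9%, with a median of 17 per window. Both kinds thus hold windows rich and poor in CG, and these 6 do not stand for the medians given above.

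Cadherins, clustered protocadherins and neuronal adhesion genes had the highest shares of lost genes among the 34 lists, between 33.3% and 49.1%, against 4.57% of all genes. Of their members with enough coverage in sgControl to be lost, 71.4%, 56.5% and 65% were, against 24.3% of all such genes. Of the 30 classical and desmosomal cadherin genes, which encode calcium-dependent adhesion proteins, 10 were called lost and 1 gained. All 10 lie on chromosome 18, where 56.1% of control-marked length was lost, and 7 of them are the desmocollin and desmoglein genes of 1 cluster, so they are not independent cases. The list averaged 12.5% ± 0.628 of the gene body in SKO and 42.8% ± 1.38 in sgControl (SD, n = 2), with a median difference of -10.5 percentage points per gene, against 0 over all genes. DSG4 (chr18:31376777-31414909), a hair desmoglein gene, was at 0% in both SKO libraries and 100% and 89.5% in sgControl. CDH2 (chr18:27932879-28177130), the N-cadherin gene, chosen after its values were seen, was at 0% in both SKO libraries and 97.7% and 78.7% in sgControl. The 1 gain was CDH26 on chromosome 20, with 82.5% and 100% in SKO and 18.6% and 43.3% in sgControl. Of 53 clustered protocadherin genes, which give single neurons their surface identity, 26 were called lost and none gained, with a mean of 38.5% ± 7.54 in SKO and 74.6% ± 5.64 in sgControl and a median difference of -42.7 points. PCDHB9 (chr5:141187161-141191541) was at 0% in both SKO libraries and 100% in both sgControl libraries, and so was PCDHB4 of the same cluster. These genes lie side by side on chromosome 5 and share domains, and with every list at the same covered length 5 of them were called lost.

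Of 76 neuronal adhesion and guidance genes, 26 (34.2%) were called lost and 1 gained, with a mean of 18.0% ± 1.10 in SKO and 42.8% ± 1.03 in sgControl. SLITRK6 and SLITRK1, synapse organiser genes of chromosome 13, were at 0% in both SKO libraries and 100% in both sgControl libraries, and SLITRK5 at 0% in SKO and 92.4% and 82.7% in sgControl. H3K27me3 told these neighbours apart: it covered SLITRK6 and SLITRK1 over 100% in all 4 libraries, and SLITRK5 (chr13:87671371-87679616) over 100% in SKO and 0% in sgControl. NRCAM, which encodes a cell adhesion molecule of axons, went the other way, with 84.5% and 90.2% in SKO and 50.5% and 42.2% in sgControl. Of 112 genes of voltage gated channels, 16 (14.3%) were called lost and 4 (3.57%) gained. Of 44 genes of GABA, glutamate and glycine receptors, 5 (11.4%) were called lost and none gained, or 10 lost without sgControl replicate 2. Of all genes 4.57% were called lost and 4.09% gained. Among genes with enough coverage in sgControl to be lost, 43.2% of 37 channel genes and 35.7% of 14 receptor genes were. Of all such genes 24.3% were. GRM3 (chr7:86643909-86864879), a metabotropic glutamate receptor gene, was at 5.07% and 0% in SKO and 100% and 96.0% in sgControl. GRIK1, a kainate receptor gene, kept 55.7% and 57.3% in SKO, against 98.0% and 93.6% in sgControl.

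Both lists of developmental regulators outside the HOX clusters had more genes called lost than gained, against 4.57% lost and 4.09% gained of all genes. Of 98 homeobox genes 12 (12.2%) were called lost and 2 (2.04%) gained, and of 73 SOX, FOX, TBX, GATA, ZIC and bHLH genes 14 (19.2%) were called lost and none gained. Of their members with enough coverage in sgControl to be lost, 41.4% and 56% were, against 24.3% of all such genes. NKX6-1 (chr4:84491985-84499292), a regulator of pancreatic beta cells, TWIST1 (chr7:19113047-19117636), a regulator of mesoderm, and HAND2 (chr4:173526091-173530229), a regulator of the heart, were each at 0% in both SKO libraries and 100% in both sgControl libraries. At the same covered length 5 homeobox genes and 9 of the other list were called lost, without sgControl replicate 2, 21 homeobox genes were called lost, and without SKO replicate 1, 5 were called gained. The 2 homeobox gains were VSX1 and DLX2, a forebrain regulator (chr2:172099438-172102900), which was at 62.5% and 100% in SKO and 0% in sgControl. The 39 HOX cluster genes had 1 call (2.56%), the gain of HOXD8, and 8 of them had enough coverage in sgControl to be lost. HOXD8 was at 100% in SKO and 0% in sgControl, and at 76.7% and 0% in the DKO libraries. H3K27me3 was also higher there, at 76.7% in both SKO libraries and 0% in sgControl. PRDM14 and DPPA4, both known from pluripotent cells and named for the size of their difference, were at 0% in both SKO libraries and 100% in both sgControl libraries. In DKO, DPPA4 (chr3:109326144-109339636) was at 100% and 96.8%.

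H3K27me3 at these genes followed no single course. It covered TWIST1 over 100% in all 4 libraries and HAND2 over 0% in all 4. LRATD1 (chr2:14632717-14651916) exchanged the marks, with H3K9me3 at 0% in SKO and 100% in sgControl and H3K27me3 at 100% in SKO and 0% in sgControl. DLX6 had H3K27me3 over 69.97% and 100% in SKO and 0% in sgControl. At KLF5 (chr13:73054976-73077538) both marks were lower, with H3K27me3 at 6.82% and 31.6% in SKO and 61.0% and 75.2% in sgControl. Over all 874 genes called lost, H3K27me3 covered 60.03% and 59.7% in SKO and 58.0% and 57.8% in sgControl. Over the 783 genes called gained it covered 8.43% and 8.71% in SKO and 6.42% and 6.93% in sgControl.

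**Figure D4:**
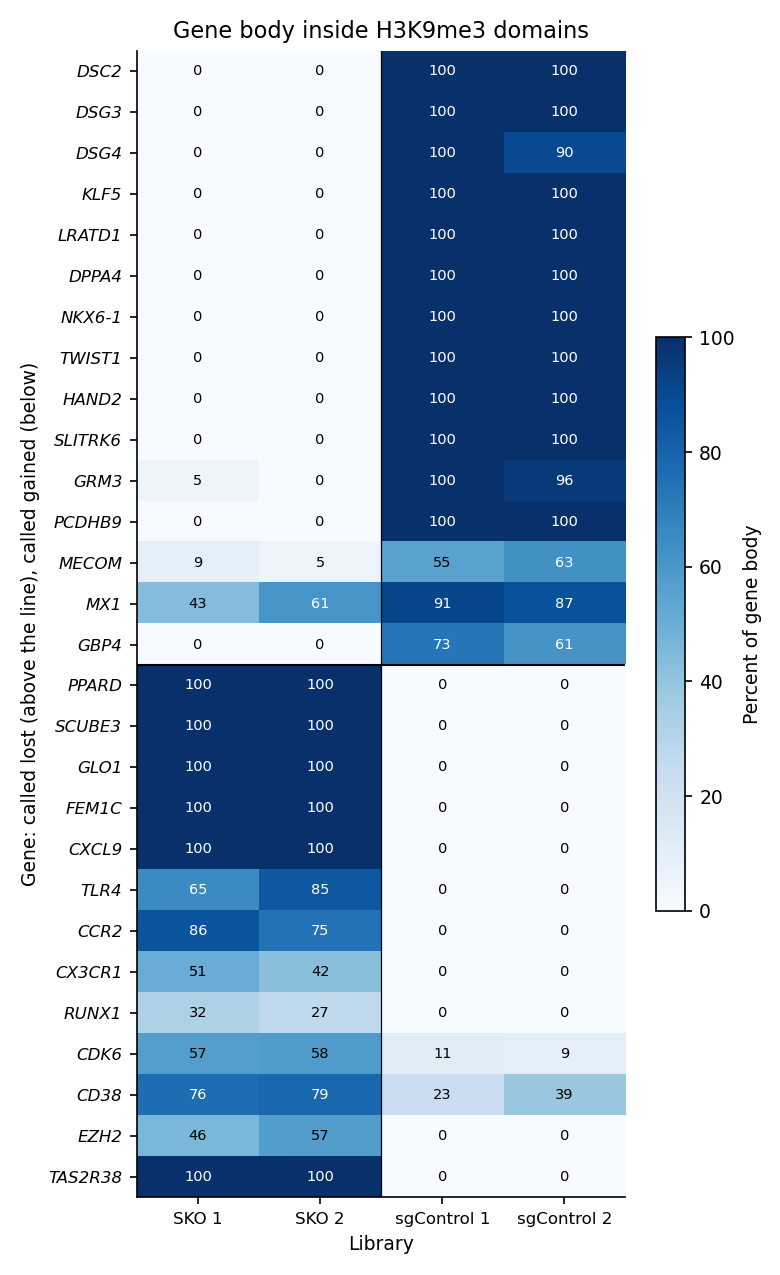
Percent of the gene body inside H3K9me3 domains for 28 of the named genes (rows) in SKO replicates 1 and 2 and sgControl replicates 1 and 2 (columns), with the value written in each cell. Genes above the line were called lost and genes below it gained, and the cells show that many calls are complete in both libraries while CDK6, CD38, MECOM and MX1 are partial in at least 1 library of each genotype.

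In the list of 44 monocyte and myeloid genes none was called lost and 3 (6.82%) gained, against 4.57% lost and 4.09% gained of all genes. Of the 44, 3 had enough coverage in sgControl to be lost. The list had a mean of 10.9% ± 0.0717 in SKO and 4.65% ± 0.974 in sgControl. CCR2 (chr3:46354111-46360940), the monocyte chemokine receptor gene, was at 86.2% and 74.5% in SKO and 0% in both sgControl libraries. CX3CR1, the fractalkine receptor gene of non-classical monocytes, was at 50.6% and 42.4% in SKO and 0% in sgControl. RUNX1 (chr21:34787801-35049302), a regulator of blood stem cells that is often mutated in leukaemia, was at 32.1% and 27.2% in SKO and 0% in sgControl. Of 15 defining myeloid markers 13, and all but 1 measured gene in each of the T cell, B cell, erythroid and epithelial marker lists, were at 0% in all 4 libraries, so these lists cannot check the myeloid label. In the list of 30 leukaemia stem cell and self renewal genes 1 (3.33%) was called lost and 3 (10%) gained, or 2 lost without sgControl replicate 1 and 5 gained without SKO replicate 1. With all 4 libraries, 2 of the 30 had enough coverage in sgControl to be lost. CDK6 (chr7:92604921-92836573), a cell cycle kinase gene, was at 57.0% and 58.4% in SKO and 11.1% and 8.63% in sgControl. CD38 and the stem cell factor receptor gene KIT were also called gained, KIT with 61.8% and 56.0% in SKO and 0% and 24.1% in sgControl. The 1 loss was MECOM (chr3:169083507-169663712), a stem cell regulator, with 8.82% and 4.83% in SKO and 55.3% and 62.8% in sgControl.

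Of 62 interferon stimulated genes 2 were called lost and 7 gained, shares of 3.23% and 11.3%, against 4.57% and 4.09% of all genes. GBP5, a guanylate binding protein gene, was at 47.2% and 66.4% in SKO and 8.47% and 0% in sgControl. The nuclear body gene SP100 was at 86.6% and 74.2% in SKO and 17.3% and 42.0% in sgControl, and was named after its value was seen. MX1 (chr21:41420558-41459214), the antiviral GTPase gene, went the other way, with 43.5% and 60.7% in SKO and 91.1% and 86.9% in sgControl, and its H3K27me3 was at 0% in SKO and 80.7% and 35.2% in sgControl. Without sgControl replicate 2 the list had 7 lost and 7 gained, and without SKO replicate 1 it had 5 lost and 7 gained, so its balance rests on those libraries. With the upper 50% of domains by score, 1 was lost and 3 were gained. Of 35 nucleic acid sensing genes none was called lost and 3 (8.57%) gained. Only 3 of the 35 had enough coverage in sgControl to be lost. TLR4 (chr9:117704403-117724735), the endotoxin receptor gene, which the list holds although its ligand is no nucleic acid, was at 64.9% and 84.6% in SKO and 0% in sgControl. Without sgControl replicate 2, 6 genes of this list were called gained. The 20 type I and III interferon genes had no call in either direction, 2 gains without SKO replicate 1 and 1 loss without sgControl replicate 2. With all 4 libraries none of the 20 had enough coverage in sgControl to be lost, so no loss could be called. Transcripts were not analysed here, so none of these values says whether a gene was expressed.

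Other clustered families are read here against 4.57% lost and 4.09% gained of all genes. Of 389 olfactory receptor genes 54 (13.9%) were called lost and 20 (5.14%) gained, and at the same covered length 24 and 44. Without sgControl replicate 2, 33 were called gained. Of the 196 olfactory receptor genes with enough coverage in sgControl to be lost, 27.6% were, close to the 24.3% of all such genes. Of the 142 with room to gain, 14.1% did, against 4.77% of all genes with room. Of 31 taste and vomeronasal receptor genes 1 (3.23%) was called lost and 9 (29.03%) gained, among them the bitter receptor gene TAS2R38 on chromosome 7, at 100% in SKO and 0% in sgControl. With any 1 of the 4 libraries left out, or at the same covered length, 9 or 10 of them were called gained. With all 4 libraries the 9 gains are 39.1% of the 23 taste and vomeronasal receptor genes with room to gain. The gained TAS2R4, TAS2R5 and TAS2R38 lie near one another on chromosome 7, between 141776674 and 141973773, so they are not independent cases. Of 258 zinc finger genes of chromosome 19, which encode many of the proteins that recruit SETDB1, 8 (3.10%) were called lost and 6 (2.33%) gained (11 gained without sgControl replicate 1), and the list stayed covered over 86.7% ± 0.0637 in SKO and 85.9% ± 0.698 in sgControl. Of 284 zinc finger genes of other autosomes 12 (4.23%) were called lost and 21 (7.39%) gained. Since 33 of the chromosome 19 genes had room to gain, the 6 gains are 18.2% of those, against 4.77% of all genes with room. The 21 gains on other autosomes are 13.8% of the 152 with room. The 8 losses are 3.49% of the 229 chromosome 19 genes with enough coverage in sgControl to be lost. The 12 losses on other autosomes are 7.89% of 152, against 24.3% of all genes with enough coverage. Genes of the H3K9 methylation machinery had no call among 29, and 1 gain each without SKO replicate 1 and without sgControl replicate 2. Only 2 of the 29 had enough coverage in sgControl to be lost. The SETDB1 gene was at 20.8% in both SKO libraries and 0% in sgControl, and RESF1, which encodes a SETDB1 partner, at 94.3% and 100% in SKO and 57.0% and 72.1% in sgControl, both short of a call. Of 29 Polycomb and H3K27 demethylase genes 2 (6.90%) were called gained, EZH2 and RYBP, a Polycomb subunit gene with 30.0% and 48.9% in SKO and 0% in sgControl. Only 1 gene of this list had enough coverage in sgControl to be lost. All 19 housekeeping genes were at 0% in every library. Members of the receptor, protocadherin, keratin and zinc finger families have near-identical relatives, and how the authors treated reads that match several places is not known here, so values of single members are uncertain.

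The remaining lists are given as genes lost, then gained, against 4.57% and 4.09% of all genes. They differ in how many members had enough coverage in sgControl to be lost, so losses are also given as shares of those. Keratin associated proteins had 14 lost and 3 gained of 94 (24 lost without SKO replicate 1), keratins 3 and 0 of 55, epithelial and stromal genes 5 and 0 of 33, and cytochrome P450 genes 5 and 6 of 55. Of the 46 keratin associated protein genes with enough coverage in sgControl to be lost, 30.4% were, against 24.3% of all such genes. Counted in the same way, 75% of 4 keratins, 50% of 10 epithelial and stromal genes and 22.7% of 22 cytochrome P450 genes were lost. Cancer testis genes of the autosomes had 4 and 3 of 97, domesticated retroviral genes 2 and 1 of 24, serpins 1 and 3 of 33, beta defensins 1 and 2 of 39, late cornified envelope genes 1 and 2 of 52, and histone genes 1 and 0 of 76. Of members with enough coverage, 2.86% of 35 late cornified envelope genes, 5.88% of 17 beta defensins and 10% of 10 serpins were lost. So were 20% of 10 retroviral genes, 33.3% of 3 histone genes and 4 of 21 cancer testis genes. Antigen presentation had 2 and 1 of 33, T and NK cell genes 2 and 2 of 32, B cell genes 2 and 1 of 22, and erythroid and megakaryocyte genes 0 and 0 of 27. The shares lost of members with enough coverage were 25% of 8, 28.6% of 7, 33.3% of 6 and 0% of 4, in that order. Several of these shares rest on few genes. Many of these counts rest on single libraries. Without sgControl replicate 2 the losses were 10 cancer testis, 4 retroviral, 5 serpin, 5 histone, 8 cytochrome P450 and 5 keratin genes, and the gains 4 beta defensin genes. Without SKO replicate 1 the gains were 5 keratin associated protein genes and 5 T and NK cell genes. Without SKO replicate 2 the losses were 8 cytochrome P450 and 4 antigen presentation genes. Without sgControl replicate 1 the losses were 5 keratin and 3 serpin genes, and the gains 5 serpin and 4 B cell genes. Of the epithelial and stromal losses, the fibrillar collagen gene COL3A1 was at 12.4% and 0% in SKO and 100% in both sgControl libraries.

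Where all 4 libraries had a domain, the read density of the enclosing domain still differed between the genotypes. Stretches of at least 10 kb inside domains of all 4 libraries numbered 13369 and spanned 409 Mb. Reads per kb of the enclosing domain were divided by the library's own median, and log2 values were compared by limma with Benjamini-Hochberg adjustment over all segments. At an adjusted p under 0.05, 3796 segments (28.4%) had lower and 2389 (17.9%) higher relative density in SKO. That balance depends on the scaling: with reads per kb scaled by each library's reads in domains, 688 were lower and 5279 higher, as the median difference moved to 0.20, against -0.09 with the library median. Segments of one domain share its value: the 2389 higher segments lay in 1638 domains of SKO replicate 1 and 2164 of sgControl replicate 1. The 3796 lower segments lay in 3034 domains of SKO replicate 1 and 2043 of sgControl replicate 1. The enclosing domains were thus not the same stretches in both genotypes. How far their extent enters the density differences was not tested. Without sgControl replicate 1, and likewise without replicate 2, no segment passed (limma, smallest adjusted p = 0.0527 and 0.0544), although 3051 and 3148 segments were lower and 2395 and 2343 higher at an unadjusted p under 0.05.

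The spread around the median was uneven, with a long upper tail. Of all segments 327 lay at least 1 above the median log2 difference and 3 at least 1 below it. The reads per kb given next are those of the domain enclosing the segment in each library. Such a domain can reach beyond the coordinates of the segment. The largest rise was in a segment inside the phosphodiesterase gene PDE4B (chr1:66342401-66357600), with 83.2 and 83.6 reads per kb in SKO and 17.1 and 13.2 in sgControl (log2 difference 2.19 ± 0.07 SE, limma adjusted p = 0.00253). At COA1, a mitochondrial assembly factor gene (chr7:43662401-43699200), there were 111 and 95.4 reads per kb in SKO and 23.3 and 18.1 in sgControl (log2 difference 2.04). CDYL, which encodes a chromodomain protein that binds methylated histone H3 (chr6:4819201-4830400), had 92.0 and 86.3 reads per kb in SKO and 21.8 and 18.4 in sgControl (log2 difference 1.87). The largest fall was on chromosome 4 near the chromosome end, over PIGG, a gene of GPI anchor synthesis (chr4:529601-615200), with 21.2 and 22.97 reads per kb in SKO and 47.0 and 36.4 in sgControl (log2 difference -1.19 ± 0.09 SE, limma adjusted p = 0.00298). The 3 next largest falls outside this region lay in gene-free parts of chromosome 13, and the first of them had 16.7 and 15.3 reads per kb in SKO and 31.7 and 25.6 in sgControl. Chromosome 13 had the largest share of lower segments, 55.3%, and chromosome 19 the largest share of higher ones, 39.9%.

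SETDB1 peaks and H3K27me3 also separated these kept segments. Segments with higher density in SKO held 46.3 shared SETDB1 peaks per Mb, segments with lower density 1.90, and all segments 15.5. A peak lay in 51.6% of the higher segments and 4.35% of the lower ones. Ordered by the density difference and cut into 10 groups of equal number, the segments held more peaks per Mb at each step, with 1.32 in the lowest group, 5.34 in the fifth and 58.8 in the highest. This order does not depend on which library median or read total is used, since a scaling moves all segments by 1 amount. H3K27me3 ran the other way: it covered 91.2% and 90.9% of the lower segments in SKO and 74.6% and 74.9% in sgControl, and 19.2% and 19.05% of the higher segments in SKO and 22.3% and 22.6% in sgControl.

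**Figure D5:**
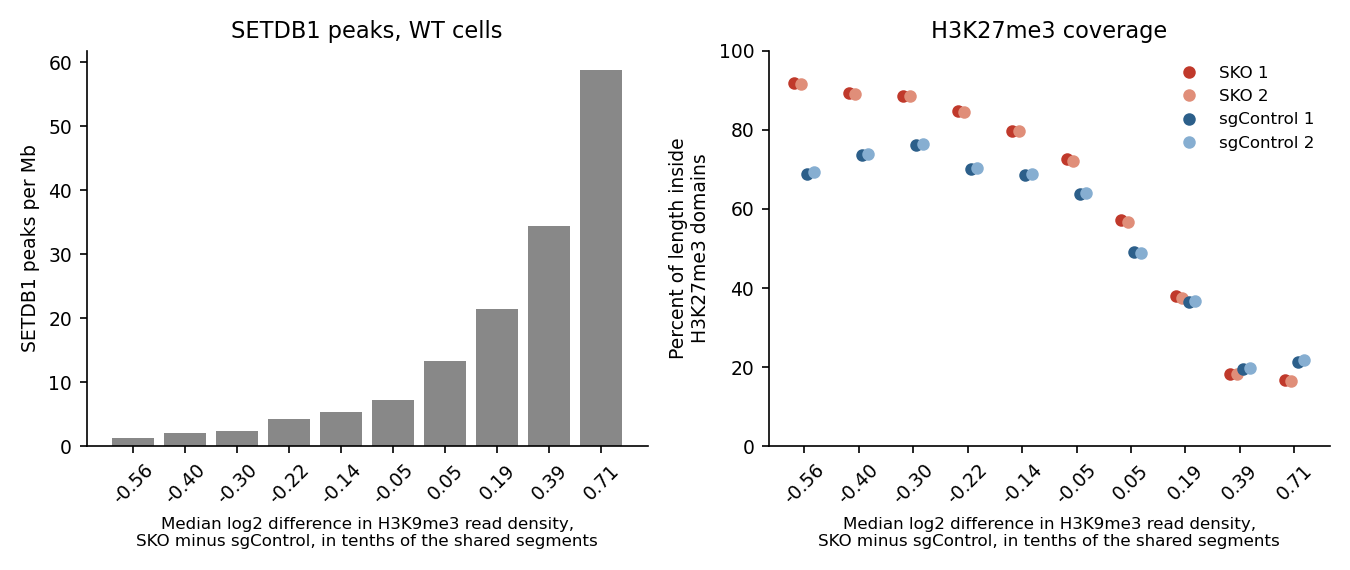
Segments inside H3K9me3 domains of all 4 libraries, in 10 groups of equal number by the log2 difference in relative read density of the enclosing domain, SKO minus sgControl (x axis, median of each group), with shared SETDB1 peaks per Mb in WT cells (left) and the percent of length inside H3K27me3 domains in SKO and sgControl replicates 1 and 2 (right). SETDB1 peaks run through 1.32 to 58.8 per Mb along the axis, and H3K27me3 is higher in SKO than in sgControl in the 8 groups on the left and lower in the 2 on the right.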

How the data were processed

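The H3K9me3 and H3K27me3 files deposited by the authors are broad domain lists, 1 per library, with a read count and a score per domain. The count is that of the library's own reads, not normalised for depth or spike-in, and the deposited score served to rank the domains of each list. The deposited SETDB1 files are peak lists with a −log10 p and q from the authors' peak caller, of which only the positions were used. The submitters' processing notes name hg38 and dm6 as builds, and SICER, deepTools 3.5.6, FastQC 0.12.1 and Trim Galore 0.6.10 as tools. The names of the deposited domain lists give epic2. Aligner, read filters and use of the inputs: not given in the sources used here, and the 4 input samples were not analysed here.

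Coverage, bins and calls were computed on the 22 autosomes with Python 3.11.15, numpy 2.4.6 and pandas 2.3.3, and figures drawn with matplotlib 3.10.9. Gene positions and promoters came from RefSeq tables of GRCh38.p14. Read density and gene coverage were fitted with limma 3.58.1 in R 4.3.3, SKO against sgControl without covariates, and Benjamini-Hochberg adjustment at 0.05 ran over all segments or genes. The fits were run on simulated data with planted changes. Each simulated segment varied on its own, unlike segments that share a domain, so false calls among such segments were not tested. The 34 gene lists, the comparisons and the rules for members were chosen with earlier results of these data known. Named genes are the 10 of largest nearest difference in each direction, up to 3 per list and direction, and all H3K9 machinery genes. Depth is given as reads in domains, 17.7 to 23.3 M per library. Some genes that the rule names are not reported here.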

Additional observations from a re-analysis of the deposited data

How the results depend on the processing

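Of 160 values of the main results under alternatives, 105 kept their direction and stayed within a tolerance, 53 moved and 2 reversed, and of 476 gene list counts 367 stayed within 1.5 times. The tolerance was 1.5 times for counts of genes, segments and chromosomes and for lost and gained length, and 1 SD between replicates for other values, so lost length passed at 384.21 Mb without sgControl replicate 2, against 273.16 Mb. Both reversals came from cutting every list by score to the covered length of the shortest, which by construction leaves a difference of 0.002 Mb in covered length, with 12101 more domains in SKO and an N50 difference of -46.8 kb. Under that cut 153.01 Mb was lost and 161.01 Mb gained, 20.3% of control domains lacked a counterpart, 444 genes were lost and 1309 gained, 8 autosomes were lower and 14 higher, and H3K27me3 was higher in SKO by 14.5 percentage points in lost, 8.91 in kept and 2.66 in gained bins. With the upper 50% of domains by score, covered length differed by -236 Mb, 41.4% of control domains lacked a counterpart, SETDB1 peaks per Mb were 0.563 in lost, 22.1 in gained and 17.2 in kept bins, and H3K27me3 differed by 13.6 points in lost and 1.04 in gained bins. A counterpart of at least 50% of the domain left 48.6% without one. Gene differences of 10 points gave 1358 lost and 1638 gained, and of 50 points 445 and 283. By limma 1318 genes were higher, and without its filter 452 were lower. For read density, 2101 segments were lower with each library centred on the segments, 688 lower and 5279 higher when scaled by reads in domains, and 715 and 424 among segments of at least 50 kb. SETDB1 stayed lower in lost than in kept or gained bins under every alternative run. The alternatives for SETDB1, H3K27me3, chromosomes and gene lists, and the centring, were chosen after seeing the data. The cause of these moves was not tested.

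Leaving out 1 library at a time, H3K27me3 differed by 12.2 to 12.9 points in lost, 7.82 to 8.59 in kept and 1.61 to 2.69 in gained bins. SETDB1 peaks per Mb ran over 0.275 to 0.452 in lost, 13.5 to 15.4 in gained and 13.3 to 14.8 in kept bins. Segments called lower numbered 0 to 4490 and higher 0 to 2502, with 0 by limma when either sgControl library was left out.

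With the replicate number as a block (replicate block), limma called 297 genes lower and 311 higher, and it moved no other count by over 1.5 times (3495 segments lower and 2448 higher). The deviations of replicate 1 from the group means had r = -0.0139 between SKO and sgControl over 7812 genes, so gene coverage showed no pairing by number. Replicate 1 still had more domains than replicate 2 in each genotype. The counts were 23419 and 20628 in SKO, 25943 and 24229 in sgControl, and 24997 and 20554 in DKO. Whether the replicate number stands for a shared batch was not tested. Domains are calls, so depth and score threshold limit what the lists show, and the fewest reads in a domain were 46.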
